A study of Saccharomyces cerevisiae with 32 samples.

Results

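The genes described here are 215 budding yeast genes whose translational efficiency was at least 2-fold lower in a cold-sensitive ded1 mutant and was not lower in a temperature-sensitive ded1 mutant. Translational efficiency is the log2 level of ribosome footprints minus the log2 level of mRNA, and its change between a mutant and its control is called the TE change. A gene was a member when its TE change was -1 or lower in ded1-cs and 0 or higher in ded1-ts, with a mean level of at least 50 (log2 5.64) in each assay of both tables. These 215 genes are 4.24% of the 5071 genes that passed the level minimum. The members were thus chosen by the levels of ded1-cs, DED1-CS, ded1-ts and DED1-TS, and their values in those strains are given as a description.

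Ded1 is a DEAD-box RNA helicase that is essential for the initiation of translation. It helps the small ribosomal subunit to attach to an mRNA and to move along the leader to the start codon, above all where the leader is long or folded. Dbp1 is its close paralog, and extra copies of DBP1 are known to relieve defects of ded1 mutants. Genes differ in how far their translation depends on Ded1, and conditional alleles are the usual way to measure this, since the gene cannot be deleted.

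The series holds 32 libraries in 3 experiments. Each of 8 strains has 2 footprint and 2 mRNA libraries, which makes 16 of either kind. At 15 °C the strains were ded1-cs, ded1-cs with high-copy DBP1 (hcDBP1) and the wild-type strain DED1-CS. At 37 °C a second experiment held ded1-ts, ded1-ts with hcDBP1 and the wild-type strain DED1-TS. A further experiment at 37 °C held the double mutant ded1-ts dbp1Δ and the single mutant dbp1Δ, so that both strains of that comparison lack DBP1. Every culture was grown in SC medium, with plasmid selection as needed, to an OD600 of about 0.7 and received 100 µg/ml cycloheximide for 2 min before harvest. The time spent at each temperature is not given in the sources used here. Allele, temperature and experiment differ together between ded1-cs and ded1-ts and cannot be told apart.

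Each deposited level is on the log2 scale and stands for the 2 libraries of a strain together. No spread between replicates can be given, and no difference below was tested against one. The words higher and lower describe pooled values, and a gene is counted as 2-fold changed at a log2 change of 1 or more in size. Sequencing depth is unknown, and the sum of the normalized levels in a column ran between 5651054 and 48359134. The strains matched their labels at DBP1, whose mRNA level was log2 14.3 in ded1-cs with hcDBP1 and 15.5 in ded1-ts with hcDBP1. In the strains with the normal gene it lay at 8.5 in ded1-cs and in DED1-CS, 9.8 in ded1-ts and 8.5 in DED1-TS, and in the deletion strains it was -3.55 in ded1-ts dbp1Δ and -0.17 in dbp1Δ. DED1 footprints were at log2 18.5 in ded1-cs against 15.83 in DED1-CS, and DED1 mRNA was at 14.9 against 13.6. In ded1-ts, DED1 mRNA was at 14.1 against 15.3 in DED1-TS. In the double mutant it was at 11.92 against 10.39 in dbp1Δ, and DED1 footprints were at 14.12 against 13.16.

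Of the 5071 genes, 1107 had a TE change of -1 or lower in ded1-cs, which is 21.8%. Among these 1107, 215 (19.4%) were at 0 or higher in ded1-ts, 277 (5.46% of the 5071) were at -1 or lower in ded1-ts as well, and 615 lay between. Across all analysed genes, 6.65% were at -1 or lower in ded1-ts and 55.6% were at 0 or higher. The 215 members had a median TE change of -1.38 in ded1-cs, against 0.11 over all analysed genes, and -2.01 in the 277 genes that were lower in both mutants. The members ranged down to -3.38, with 84 at -1.5 or lower and 21 at -2 or lower. In ded1-ts the median TE change of the members was 0.2, against 0.07 over all genes and -1.43 in the genes lower in both. Of the members, 186 stayed below 0.5 in ded1-ts and 29 were at 0.5 or higher.

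**Figure D1:**
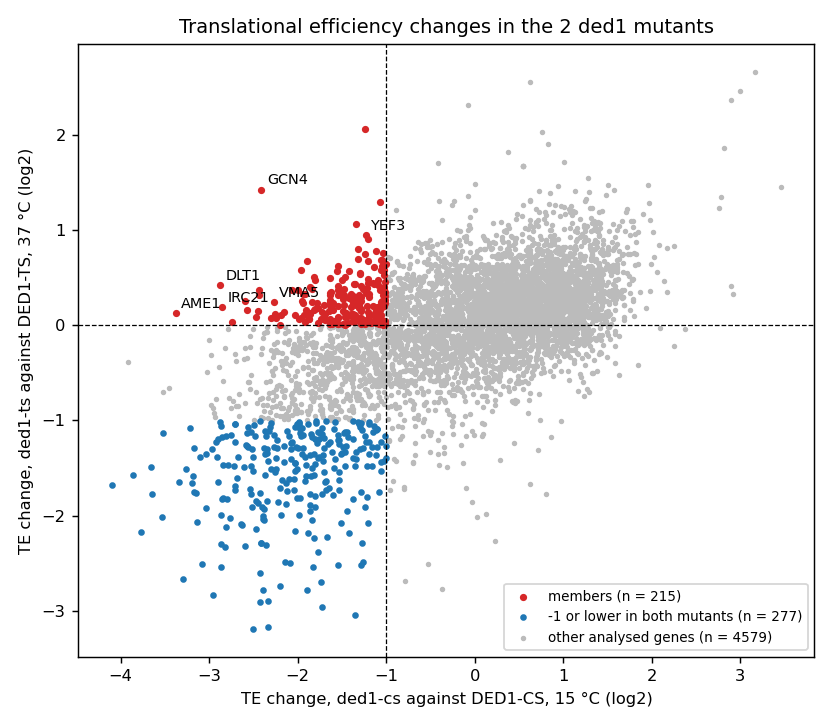
TE change (log2) in ded1-cs against DED1-CS at 15 °C (horizontal) and in ded1-ts against DED1-TS at 37 °C (vertical), 1 point per analysed gene, with dashed lines at the thresholds of the rule. The 215 members fill the upper left region, the 277 genes at -1 or lower in both mutants lie at the lower left, and GCN4 stands high among the members with -2.41 in ded1-cs and 1.42 in ded1-ts.

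For most members the lower efficiency in ded1-cs lay mainly in footprints. The footprint change of the members had a median of -1.33, and 167 of the 215 were at -1 or lower, where 20% of all analysed genes were. Their mRNA change had a median of 0.1 and was under 0.5 in size for 178 of the 215 members. The same held for 4043 of the 5071 analysed genes and for 716 of the 892 other genes at -1 or lower in ded1-cs. Those 892 genes had medians of -1.6 for footprints and 0.1 for mRNA, so this split is not particular to the members. No member had an mRNA change of -1 or lower (1.08% of all genes did), and 3 were at 1 or higher (1.46% of all genes). Those 3 were TPO4, a polyamine exporter, NRG1, a repressor of glucose-repressed genes, and YLR177W, and in them footprints stayed near the DED1-CS level while mRNA was higher. NRG1 had a footprint change of -0.01 and an mRNA change of 1.2, and YLR177W had 0.03 and 1.1. For TPO4 the footprint change was -0.26 and the mRNA change 1.2. In ded1-ts the members' median footprint change was 0.23 and their median mRNA change 0.0.

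**Figure D2:**
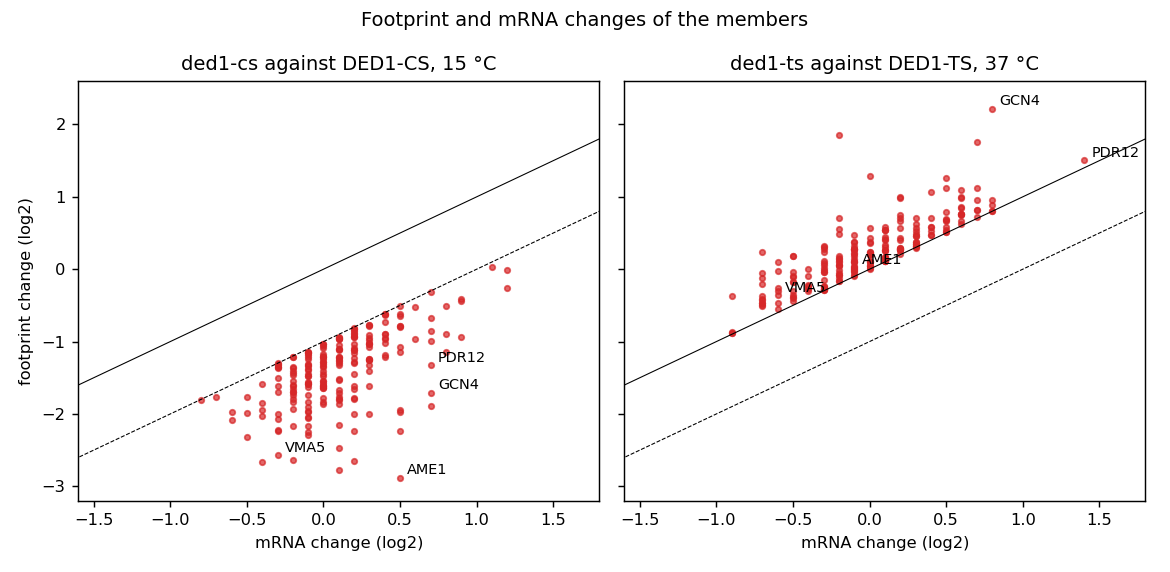
Footprint change (log2, vertical) against mRNA change (log2, horizontal) of the 215 members in ded1-cs against DED1-CS (left) and ded1-ts against DED1-TS (right), with a solid line at equal change and a dashed line at a TE change of -1. In ded1-cs the points spread downward over a narrow range of mRNA changes, with a median footprint change of -1.33 and a median mRNA change of 0.1, and in ded1-ts they lie on or above the line of equal change.

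At the edges of the rule, the members nearest to the ded1-cs threshold were RNA1 at -1.0, LPD1 at -1.01 and MEP1 at -1.01, and SMN1, CLB4 and ALG6 fell just outside at -0.99. At the ded1-ts threshold the nearest members were URE2 at 0.0, HSV2 at 0.002 and TPO4 at 0.006. The genes MED4 at -0.005, PPG1 at -0.006 and YHR112C at -0.009 fell just outside. These gaps are smaller than the rounding of the level columns, from which a TE change can depart from the authors' deposited change by up to 0.147, and 204 of the 215 members also meet the rule with the deposited changes. With the deposited changes, with median-centred changes and with columns scaled to equal totals, 163 members met the rule in every case. Equal totals alone gave 419 members, since they moved the median TE change of all genes by -0.59 in ded1-cs and -0.07 in ded1-ts. Of the members named in the text, CRD1, URE2, YAP3, OST3, SUB2, FMP48, MRP51, IDS2, TAF12, SMT1, ELP2, TPO4, KRE5, HOT1, SMF3, RTG3, IRS4, AZF1, MOT3, TCP1, PSY3, FUR4, HSV2, GAA1, CBP2, PEX15, MRPL27, ZAP1, CUZ1 and RNA1 did not, since in at least 1 of these cases they passed the other side of a threshold.

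GCN4, the activator of amino acid biosynthesis genes, had the largest difference between the mutants of all members. Its own translation is held down by short upstream reading frames in its leader. GCN4 footprints were at log2 9.8 in ded1-cs against 11.51 in DED1-CS, while its mRNA was at 14.6 against 13.9, a TE change of -2.41. At 37 °C its footprints were at 13.05 in ded1-ts against 10.83 in DED1-TS, and its mRNA at 15.2 against 14.4, a TE change of 1.42. Footprints of GCN4 were thus lower in the cold-sensitive mutant and higher in the temperature-sensitive mutant, and mRNA was higher in both. In the double mutant GCN4 footprints were at 11.23 against 10.07 in dbp1Δ and mRNA at 13.46 against 12.96, a TE change of 0.65. With hcDBP1, its TE change was -1.6 in ded1-cs against DED1-CS and 1.1 in ded1-ts against DED1-TS. CBS1, needed to translate the mitochondrial COB mRNA, is the other member on the list of genes with known upstream reading frames. CBS1 had TE changes of -1.21 in ded1-cs, 0.9 in ded1-ts and 0.83 in the double mutant. That list held 15 analysed genes, of which 6 were at -1 or lower in ded1-cs, 2 were members and 2 were lower in both mutants.

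The member with the lowest TE change in ded1-cs was AME1, which encodes a subunit of the kinetochore complex that links centromeres to microtubule-binding proteins. AME1 footprints were at log2 5.7 in ded1-cs against 8.58 in DED1-CS, and its mRNA at 9.6 against 9.1, a TE change of -3.38. In ded1-ts its footprints were at 9.14 against 9.11 in DED1-TS, with a TE change of 0.13. DLT1, a gene of poorly known function, had footprints at 4.3 in ded1-cs against 7.08 in DED1-CS and mRNA at 9.3 against 9.2, a TE change of -2.88. The footprint level of DLT1 was the lowest of all members in ded1-cs, and the mRNAs of both genes were above their DED1-CS levels. IRC21, a cytochrome b5-like protein, had footprints at 6.5 in ded1-cs against 9.15 in DED1-CS and a TE change of -2.85. PPE1, a methyl esterase acting on the catalytic subunit of protein phosphatase 2A and also recovered with mitochondrial ribosomes, had a TE change of -2.59, with footprints at 6.4 against 8.29 and mRNA at 9.2 against 8.5. In ded1-ts the TE changes of DLT1, IRC21 and PPE1 were 0.42, 0.19 and 0.25. FAR10, which acts in pheromone arrest, had -2.47 in ded1-cs and 0.08 in ded1-ts. The values of MFB1, an F-box protein attached to mitochondria, were -2.45 and 0.15.

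**Figure D3:**
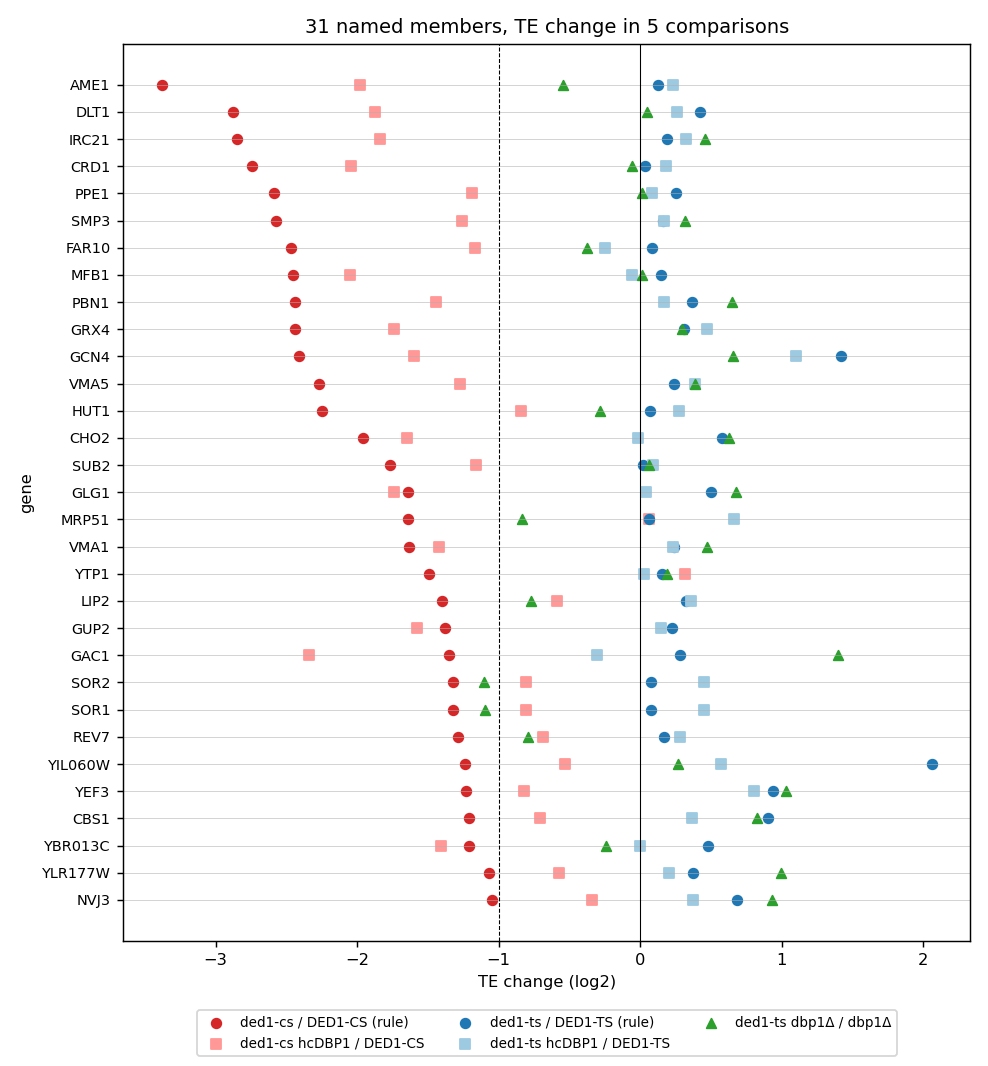
TE change (log2, horizontal) of the 31 members named by rank (rows, from the lowest ded1-cs value at the top) in 5 comparisons, each marked by colour and shape. The red circles of ded1-cs lie at or beyond -1 by the rule, the lighter squares of ded1-cs with hcDBP1 lie closer to 0 for most genes and farther for GAC1 at -2.34, and the green triangles of the double mutant against dbp1Δ scatter around 0 between -1.1 for SOR1 and 1.4 for GAC1.

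Functions were read from 41 lists of yeast genes, of which 32 held at least 1 member and 16 held 3 or more. The lists cover 96 members, 119 are in none, and 20 of the 215 are known by locus tag alone. The share of members in each list is set beside 4.24% over all analysed genes and was not tested. That share also depends on how many genes of a list were at -1 or lower in ded1-cs (21.8% of all genes). Of all such low genes, 19.4% were members. There was no member among the 160 analysed ribosome biogenesis genes, the 32 initiation factor genes, the 22 tRNA synthetase genes, the 21 glycolysis and fermentation genes or the 39 genes of oxidative phosphorylation. Few genes of these lists were at -1 or lower in ded1-cs at all, 11, 4, 1, 2 and 5 in the same order. The 31 RNA polymerase subunit genes also held none, although 6 of them were at -1 or lower in ded1-cs, since 5 of those 6 were at -1 or lower in ded1-ts as well.

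Genes for GPI anchors and protein glycosylation, which build sugar chains on proteins in the ER and Golgi, gave 9 members. Of the 73 analysed genes of this list, 31 were at -1 or lower in ded1-cs, 9 (12.3%) were members, and 2 were lower in both mutants. The median TE change of the whole list was -0.87 in ded1-cs, 0.02 in ded1-ts and 0.23 in the double mutant against dbp1Δ, where all analysed genes had 0.11, 0.07 and 0.11. SMP3, a mannosyltransferase of the GPI anchor, had footprints at log2 6.4 in ded1-cs against 8.87 in DED1-CS and mRNA at 9.5 against 9.4, a TE change of -2.57. In ded1-ts SMP3 footprints were at 10.02 against 9.26 in DED1-TS and mRNA at 10.5 against 9.9, a TE change of 0.16. PBN1, a subunit of the first GPI mannosyltransferase, had a TE change of -2.44, with footprints at 7.6 in ded1-cs against 9.84 in DED1-CS and mRNA at 10.3 against 10.1. For PBN1 the TE change was 0.37 in ded1-ts and 0.65 in the double mutant. Both enzymes thus had lower footprints at nearly equal mRNA in the cold-sensitive mutant, and footprints above the control in the temperature-sensitive mutant.

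Other members of this list act at further steps of the same pathways. GAA1, a subunit of the transamidase that attaches the anchor to proteins, had -1.04 in ded1-cs and 0.32 in ded1-ts. OST3, a subunit of oligosaccharyltransferase, was at -1.87 and 0.06. ALG8 and ALG11, which lengthen the lipid-linked oligosaccharide, were at -1.8 and -1.06 in ded1-cs and at 0.17 and 0.25 in ded1-ts. KRE5, needed for cell wall glucan, had values of -1.45 and 0.01. KTR4 and KTR5, of the mannosyltransferase family, were at -1.09 and -1.34 in ded1-cs and at 0.47 and 1.06 in ded1-ts. KTR5 was 1 of 4 members with a TE change of 1 or higher in ded1-ts (2.41% of all genes), with GCN4 at 1.42, CNL1, a subunit of the endosomal BLOC-1 complex, at 1.29, and YIL060W at 2.06. In the double mutant against dbp1Δ, the 9 members of the list lay between 0.09 for ALG11 and 0.81 for KTR5, where 58.9% of all genes were at 0 or higher. Scaling to equal totals moved all genes by -0.20 in this comparison, more than the value of ALG11. The reading frame YIL060W overlaps another annotated gene, so its reads cannot be assigned with certainty.

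The vacuolar proton ATPase, a multi-subunit pump that acidifies the vacuole, gave 4 members of its 21 analysed genes (19.0%). In this list 7 genes were at -1 or lower in ded1-cs and 1 was lower in both mutants. VMA5, a subunit of the stalk of the pump, had footprints at log2 10.8 in ded1-cs against 13.37 in DED1-CS and mRNA at 12.7 against 13.0, a TE change of -2.27. In ded1-ts VMA5 footprints were at 13.41 against 13.77 in DED1-TS and mRNA at 12.8 against 13.4, a TE change of 0.24. VMA1, the catalytic subunit, had footprints at 14.4 in ded1-cs against 15.93 in DED1-CS with mRNA at 14.3 against 14.2, a TE change of -1.63. VMA6, a subunit of the membrane sector, was at -1.19 and VOA1, an assembly factor in the ER, at -1.03. The 4 genes had TE changes of 0.24 for VMA5, 0.24 for VMA1, 0.3 for VMA6 and 0.57 for VOA1 in ded1-ts. In the double mutant they were at 0.39, 0.47, 0.4 and 0.35 in the same order. The median of the whole list was -0.38 in ded1-cs, 0.42 in ded1-ts and 0.35 in the double mutant. In the strains with ded1-ts the members thus had values on either side of the median of the whole pump or close to it.

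Transcription gave 15 members over 2 lists. Of 103 analysed genes for DNA-binding activators and repressors, 39 were at -1 or lower in ded1-cs, 9 (8.74%) were members and 10 were lower in both mutants. Besides GCN4 and NRG1, these members were YAP3, a bZIP factor, at -1.87 in ded1-cs, ASH1, which represses mating-type switching in daughter cells, at -1.84, and SKO1, a repressor in the osmotic response, at -1.34. RTG3, an activator of mitochondrial retrograde signalling, was at -1.33, MOT3 at -1.25, YRR1, of drug resistance, at -1.12 and ZAP1, the zinc-responsive activator, at -1.01. Of 72 analysed genes for Mediator, SAGA and general transcription factors, 26 were at -1 or lower in ded1-cs, 6 (8.33%) were members and 5 were lower in both. Among the genes low in ded1-cs, members were thus 9 of 39 and 6 of 26 in these lists, near the 19.4% over all such genes. SPT15, the TATA-binding protein, had footprints at log2 8.0 in ded1-cs against 10.66 in DED1-CS and mRNA at 11.2 against 11.6, a TE change of -2.26. TOA1, a subunit of TFIIA, which binds beside the TATA-binding protein, was at -1.6, and TAF12, shared by TFIID and SAGA, at -1.55. SGF11, of the SAGA deubiquitinase, ROX3, of Mediator, and SSL1, of TFIIH, were at -1.91, -1.63 and -1.01. In ded1-ts these 6 ranged between 0.01 for TAF12 and 0.26 for ROX3. In the double mutant against dbp1Δ the same 6 lay on both sides of 0, between -0.4 for TOA1 and 0.53 for SGF11, and the 9 activators and repressors lay between -0.06 for YAP3 and 0.8 for NRG1.

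Among the mitochondrial lists, members fell in those of gene expression, ribosomal proteins and import. Import gave 2 of 39 genes (5.13%), near the 4.24% of all analysed genes. None fell in the lists of carriers, with 31 analysed genes, or oxidative phosphorylation, with 39. Of these, 8 and 5 genes were at -1 or lower in ded1-cs. Lists of this size would hold few members at the share of all genes, so nothing is read from their absence. The list of mitochondrial gene expression and complex assembly held 83 analysed genes, of which 23 were at -1 or lower in ded1-cs and 6 (7.23%) were members. AEP2, needed for expression of the mitochondrial OLI1 gene, had footprints at 7.2 in ded1-cs against 9.0 in DED1-CS and mRNA at 10 against 9.8, a TE change of -2.0. MGM101, a recombination protein of mitochondrial DNA, was at -1.86. CBS1 and CBS2, both activators of COB translation, were at -1.21 and -1.02, CBP2, needed to splice COB, at -1.03 and CBP4, an assembly factor of complex III, at -1.31. Of 72 mitochondrial ribosomal protein genes, 15 were at -1 or lower in ded1-cs and 5 (6.94%) were members, with MRPS9 at -1.92, MRPL20 and MRP51 at -1.64, MRPL27 at -1.02 and PPE1. TIM50, a receptor of the inner membrane import machinery, and SAM35, of the outer membrane sorting machinery, were at -1.93 and -1.53. Against dbp1Δ, the double mutant had AEP2 at 0.21, MRPS9 at 0.15, MRPL20 at 0.25, SAM35 at 0.63 and TIM50 at -0.07. The lowest of the mitochondrial members there were MRP51 at -0.84, MGM101 at -0.52 and CBP4 at -0.31.

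Peroxisomal genes gave 4 members of 36 analysed (11.1%), with 9 at -1 or lower in ded1-cs. PEX2, a ubiquitin ligase of the import machinery, had footprints at 6.7 in ded1-cs against 8.56 in DED1-CS and mRNA at 9.9 against 9.8, a TE change of -1.96. PEX7, the receptor for the second kind of import signal, was at -1.78, PEX28, which controls peroxisome number, at -1.49 and PEX15, the membrane anchor of the export ATPase, at -1.03. Against dbp1Δ, these 4 lay in the double mutant between 0.2 for PEX28 and 0.37 for PEX7. Lipid synthesis gave 5 of 83 genes (6.02%). CRD1, cardiolipin synthase, was at -2.74 with footprints at 6.6 in ded1-cs against 8.84 in DED1-CS. CHO2, which methylates phosphatidylethanolamine, was at -1.96 with footprints at 11 against 13.16 and mRNA at 12.4 against 12.6. ERG24 and ERG2, of the late sterol pathway, were at -1.62 and -1.15, and DGK1, diacylglycerol kinase, at -1.28. In ded1-ts CHO2 was at 0.58, ERG24 at 0.34, DGK1 at 0.26, ERG2 at 0.2 and CRD1 at 0.03.

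Plasma membrane transporters gave 5 of 74 (6.76%), the weak-acid pump PDR12 at -2.03, TPO4 at -1.46, the uracil permease FUR4 at -1.05, and the ammonium permeases MEP2 at -1.04 and MEP1 at -1.01, while 11 of the 74 were lower in both mutants. PDR12 had a TE change of 0.1 in ded1-ts, where its footprints and its mRNA were both higher, by 1.5 and 1.4. Signalling gave 5 of 91 (5.49%), with PDE1 at -1.55, MKK2 at -1.48, SHO1 at -1.32, STE7 at -1.13 and RHO1 at -1.06, and 12 of the 91 were lower in both. DNA replication and repair gave 5 of 129 (3.88%), led by the end-joining factor NEJ1 at -1.32. Nuclear transport gave 3 of 65 (4.62%), the mRNA export helicase SUB2 at -1.77, the pore membrane protein NDC1 at -1.47 and the Ran GTPase activator RNA1 at -1.0. Endosomal sorting gave VPS25, DID4 and APL2, 3 of 88 genes (3.41%), and secretion gave ERP2, SEC15 and TRS33, 3 of 99 (3.03%). On the list for tRNA processing and modification, the members were TFC7, which encodes a transcription factor subunit, ELP2 and TRM13, 3 of 82 (3.66%). Among chaperones they were JJJ3, AHA1 and TCP1, 3 of 58 (5.17%). These shares are near the 4.24% of all analysed genes. The TE changes of these 12 in ded1-cs lay between -1.95 for TFC7 and -1.05 for TRS33. Cyclins, Start and mitotic exit gave only SIC1, the inhibitor of the S-phase kinase, at -1.21, although 23 of the 55 genes of that list were at -1 or lower in ded1-cs. In amino acid synthesis, 2 of 79 genes were members, ARG2, the first enzyme of the arginine pathway, at -1.48 and the branched-chain aminotransferase BAT2 at -1.45.

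The most abundant mRNA among the members, by levels not divided by length, was that of YEF3, the fungal elongation factor 3. YEF3 footprints were at log2 16.2 in ded1-cs against 17.53 in DED1-CS and mRNA at 16.7 against 16.8, a TE change of -1.23. At 37 °C its footprints were at 18.41 in ded1-ts against 18.17 in DED1-TS, while its mRNA was at 15.7 against 16.4, a TE change of 0.94. In the double mutant the footprints were at 16.53 against 16.1 in dbp1Δ and the mRNA at 13.62 against 14.23, a TE change of 1.03. In both ded1-ts strains the YEF3 value came from more footprints on less mRNA. SUB2, also abundant, had footprints at 13.76 in ded1-ts against 14.64 in DED1-TS and mRNA at 12.9 against 13.8, so that footprints and mRNA were lower together and the TE change was 0.02.

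The comparison of the double mutant ded1-ts dbp1Δ with dbp1Δ asks about the same ded1-ts allele at 37 °C in libraries that the rule did not use, in cells without DBP1. It is not a like-for-like repeat, since DED1 mRNA was above its control here and below its control in ded1-ts. Of the 215 members, 212 passed the level minimum here, as a mean over both strains, and GUP2, PSY3 and ARN2 did not. Their median TE change was 0.19, with 2 genes (0.943%) at -1 or lower and 146 (68.9%) at 0 or higher. Over all 4965 genes that passed here, the median was 0.11, 8.22% were at -1 or lower and 58.9% were at 0 or higher. Of the genes lower in both ded1 mutants, 243 of 275 (88.4%) were at -1 or lower, with a median of -1.75, and none was at 0 or higher. Genes that lay between the thresholds in ded1-ts had a median of -0.45, with 15% at -1 or lower. The members' median in these libraries was therefore near that of all genes, with a smaller share at -1 or lower. It was well above the medians of the other genes low in ded1-cs, from which the rule had parted the members by the same allele. All genes at 0 or higher in ded1-ts were not set beside them. With all columns scaled to equal totals, the medians were -0.01 for the members, -1.95 for the genes lower in both and -0.09 for all genes, and 3 members were at -1 or lower.

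**Figure D4:**
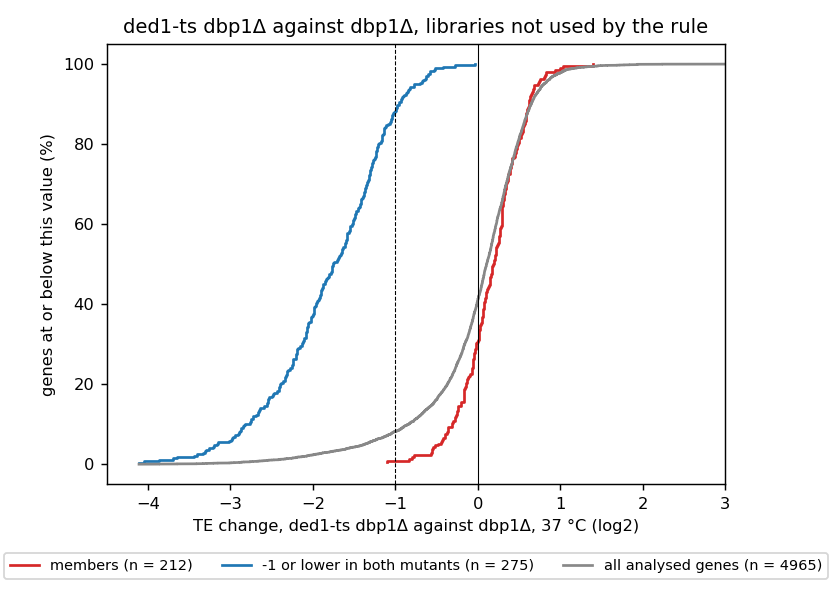
Cumulative share of genes (percent, vertical) by TE change (log2, horizontal) in ded1-ts dbp1Δ against dbp1Δ at 37 °C, in libraries the rule did not use. The curve of the 212 members that passed the level minimum follows that of all 4965 genes at its upper end and has 0.943% at -1 or lower, beside 8.22% of all genes, and the curve of the 275 genes lower in both ded1 mutants lies far to the left.

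The 2 members at -1 or lower in the double mutant were SOR1 and SOR2, near-identical sorbitol dehydrogenase genes whose values were nearly the same. Their reads cannot be told apart with certainty, and they count as 1 observation. SOR1 footprints were at 5.89 in the double mutant against 6.19 in dbp1Δ while mRNA was at 7.23 against 6.44, and both genes had a TE change of -1.1. Next lowest were MRP51, of the small mitochondrial ribosomal subunit, at -0.84, REV7, of DNA polymerase zeta, at -0.79 and LIP2, a lipoate ligase, at -0.77. MRP51 is a neighbour of DBP1, which both strains lack, and the part of that deletion in its value was not tested. The highest members were GAC1, a targeting subunit of protein phosphatase 1 in glycogen synthesis, at 1.4, and YEF3 at 1.03, against 2.22% of all genes at 1 or higher. They were followed by YLR177W at 0.99, NVJ3, a protein of nucleus-vacuole junctions, at 0.93 and CBS1 at 0.83. The dbp1Δ change that this comparison subtracts was -2.2 for GAC1 and -0.69 for YLR177W by the authors' deposited values. For YEF3, NVJ3 and CBS1 that deposited change was 0.02, 0.04 and 0.5. AME1, the lowest member in ded1-cs, was at -0.55 in the double mutant, with footprints at 7.21 against 7.72 in dbp1Δ and mRNA at 8.42 against 8.39.

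In ded1-cs with hcDBP1 the members were still below DED1-CS but less so. Values against DED1-CS share the wild-type libraries with the rule, so they are set side by side only. Of 214 members that passed the level minimum in this table, 88 (41.1%) were at -1 or lower against DED1-CS, where 13.1% of all genes were, and the median was -0.87, against -1.38 without hcDBP1. With equal totals 182 of the members were at -1 or lower here. At 0 or higher were 4 members (56% of all genes), YTP1 at 0.32, PSY3 at 0.09, ZAP1 at 0.09 and MRP51 at 0.06. Of the 277 genes lower in both ded1 mutants, 227 (81.9%) were at -1 or lower with a median of -1.49.

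Set against ded1-cs itself, hcDBP1 gave the members a median TE change of 0.51, with 209 of 214 at 0 or higher (61.5% of all genes) and 20 at 1 or higher (2.3% of all genes). The footprint median was 0.6 and the mRNA median 0.0. The genes lower in both mutants had the same median of 0.51, with 39 of 277 at 1 or higher, and all analysed genes had 0.01. The members therefore had the same median as the other genes low in ded1-cs, and since ded1-cs is part of both contrasts no more is read from it. The highest members were YTP1 at 1.81, MRP51 at 1.7, HUT1, a putative sugar transporter of the ER, at 1.41 and, tied at 1.4, AME1, PPE1 and VPS25. AME1 footprints were at 6.9 with hcDBP1 against 5.7 in ded1-cs, and mRNA at 9.4 against 9.6. MRP51 is a neighbour of DBP1, the gene held at high copy in this strain. Its mRNA was at 11.4 with hcDBP1 against 10.8 in ded1-cs. The part of the extra DBP1 copies in its values was not tested.

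At the other end, GAC1 had a TE change of -0.99 with hcDBP1 against ded1-cs, from footprints at 5.0 against 6.5 and mRNA at 5.9 against 6.4. GUP2 and YBR013C followed at -0.2, and GLG1, a glycogenin that primes glycogen synthesis, at -0.1. The mRNA levels of GAC1 and YTP1, at the ends of this range, were close to the level minimum of 5.64, with YTP1 at 5.4 with hcDBP1 against 5.6 in ded1-cs. Against DED1-CS with hcDBP1 present, the 4 proton pump members were at -1.27 for VMA5, -1.42 for VMA1, -0.68 for VMA6 and -0.52 for VOA1. In the same comparison, SMP3 was at -1.26 and PBN1 at -1.44, against -2.57 and -2.44 without hcDBP1. SPT15 was at -1.75 with hcDBP1, against -2.26 without it.

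**Figure D5:**
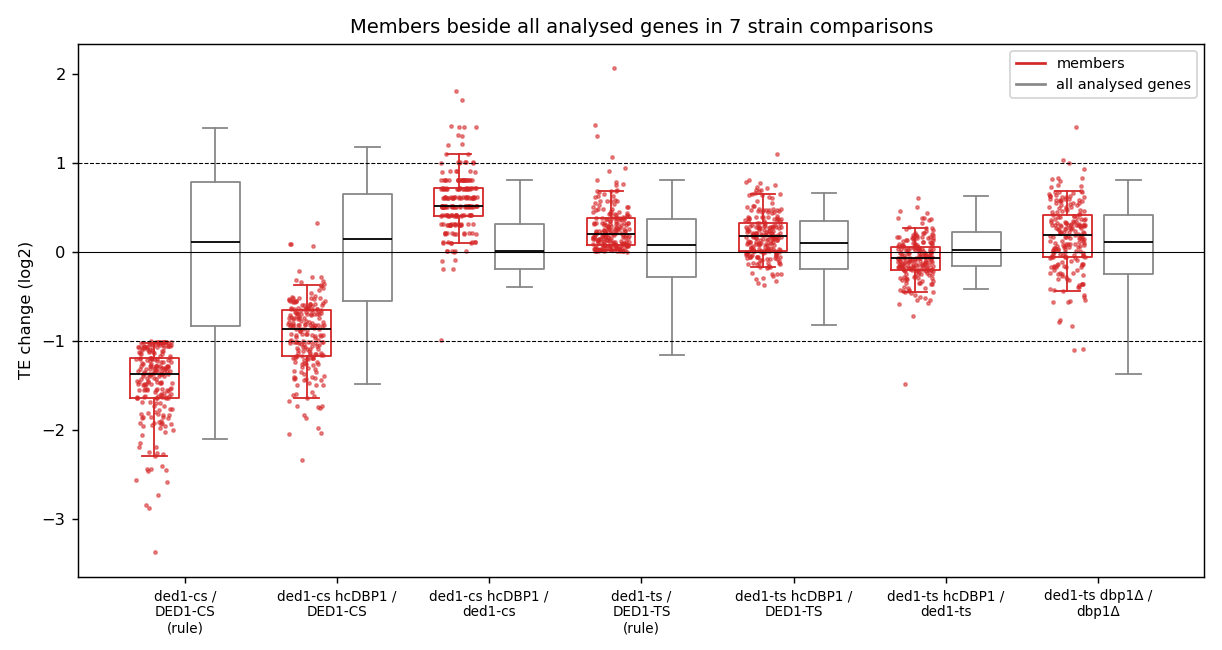
TE change (log2, vertical) of the members (red points, with box for quartiles, black median and whiskers at the 5th and 95th percentile) and of all analysed genes (grey boxes) in 7 comparisons. By the rule the members lie at -1 or lower in ded1-cs and at 0 or higher in ded1-ts; against ded1-cs, hcDBP1 has a member median of 0.51, and in the double mutant against dbp1Δ the member median is 0.19 beside 0.11 for all genes.

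In ded1-ts with hcDBP1 the members lay near the wild type. Against DED1-TS their median TE change was 0.17, none was at -1 or lower (3.04% of all genes), 165 of 215 were at 0 or higher (59.7% of all genes), and only GCN4 was at 1 or higher (0.75% of all genes). With equal totals that median was -0.0521. Against ded1-ts their median was -0.08, beside 0.02 over all genes, and no member was at 1 or higher where 1.36% of all genes were. In the genes lower in both mutants that median was 0.62 with 49 of 277 at 1 or higher. Since ded1-ts chose both sets and is part of this contrast, the choice itself can set these medians apart. It cannot be told apart here from an effect of hcDBP1, and nothing is read from their difference. YIL060W was the only member at -1 or lower, at -1.49 (0.197% of all genes).

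The members' median was near 0 for loss of DBP1 alone, set against a WT whose level columns match none of the 32 libraries. In the authors' deposited table, 210 members reached the level minimum in dbp1Δ itself and had a median TE change of -0.04 in dbp1Δ against its WT, and all genes had -0.01. There, 6 members were at -1 or lower by the authors' deposited table, where 1.82% of all genes were, and 2 were at 1 or higher, where 0.446% were. The 6 low values in the authors' deposited table belong to GAC1 at -2.2, MRP51 at -1.84, FMP48 at -1.23, YBL081W at -1.15, YBR013C at -1.04 and AGP2, a plasma membrane regulator of polyamine and carnitine uptake, at -1.04. MRP51 is a neighbour of DBP1, the gene deleted here, and its deposited footprint and mRNA changes were -2.15 and -0.31. The part of the deletion in its value was not tested. The 2 high values in the authors' deposited table were PDR12 at 1.17 and GCN4 at 1.1, and ARN2, below the level minimum, is given there at 1.005.

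In the wild-type strains the members had a lower median TE level than all analysed genes. The wild-type TE level, log2 footprints minus log2 mRNA, in which gene length cancels, had a median of -0.28 for the members in DED1-CS at 15 °C, against -0.23 in the genes lower in both mutants and 0.02 over all genes. In DED1-TS at 37 °C it was -0.41 for the members, 0.01 for the genes lower in both and 0.08 over all genes. The wild-type levels are the denominators of the rule, so this is a description. The members were thus below all genes in both wild types, and below the genes lower in both mutants mainly at 37 °C.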

How the data were processed

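Per the labels, footprints were made with RNase I and compared with mRNA from the same strains. Per the submitters' processing notes, the genome build was sacCer2, and the tools, given without role or order, included TopHat2 2.1.0, Bowtie2 2.6.0, DESeq2 and CASAVA 1.8. The authors deposited log2 levels and log2 changes, 1 pooled value per strain and assay in each of 6 tables, scaled table by table. The tables name no log base, and base 2 was inferred from their values. Another 4 level columns, those of the WT in the dbp1Δ and double-mutant tables, match no sample and were not used.

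TE changes of ded1-cs, ded1-ts and the hcDBP1 strains were computed from the level columns as footprint change minus mRNA change. The mean of the log2 levels of mutant and wild type had to reach 5.64 (a level of 50) in each assay of the ded1-cs and ded1-ts tables. The same minimum held in each further comparison, over the strains of its table, over both strains for the double mutant against dbp1Δ, and in dbp1Δ alone against its WT. A strain with hcDBP1 was set against its ded1 mutant by the difference of the changes of their tables. The double mutant was set against dbp1Δ by the difference of the deposited changes, assuming that both tables share their WT. Changes of dbp1Δ against that WT are the authors' own. Counts at a log2 change of 1 (2-fold) and medians stand in for tests, which pooled values do not allow.

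Of 5446 reading frames, 5444 were matched to symbols through a RefSeq annotation of assembly R64, which is another build than sacCer2. It was used for names, overlaps and neighbours, so no positions are given. Members and gene lists were chosen with earlier results of these data known. The named genes are the members at each end of the comparisons, those with the highest mRNA, the 3 lowest of each list with 3 or more members, the genes nearest the thresholds, and GCN4, DED1 and DBP1. The others named were chosen after their values were seen. The rule was also run on simulated data in which the chosen genes had fixed changes, which checks the code and not the real values. Python 3.11.15, pandas 2.3.3 and numpy 2.4.6 were used.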

Additional observations from a re-analysis of the deposited data

How the results depend on the processing

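No paired analysis was possible because the libraries of a strain are pooled in every value, so leaving out a replicate was not possible either. Protein and leader features, and equal totals or level columns for dbp1Δ against its WT, were not run. The number of members, 215, was 419 with equal totals, 84 with a ded1-cs threshold of -1.5, and 89 or 381 with a ded1-ts threshold of 0.25 or -0.25. With the deposited changes, other level minimums or median centring it was at most 249, and 163 members met the rule in every scaling together, an alternative added after the data were seen. Equal totals moved the median TE change of all genes by -0.59 in ded1-cs, -0.42 in ded1-cs with hcDBP1, -0.07 in ded1-ts, -0.22 in ded1-ts with hcDBP1 and -0.20 in the double mutant. In that scaling the members' medians were -1.86 for footprints in ded1-cs, -1.29 for ded1-cs with hcDBP1 (182 at -1 or lower, against 88), 0.68 for hcDBP1 against ded1-cs, -0.0521 for ded1-ts with hcDBP1, -0.23 for hcDBP1 against ded1-ts, and -0.0087 in the double mutant. At a ded1-cs threshold of -1.5, the hcDBP1 medians were -1.16 against DED1-CS (58 of 84 at -1 or lower) and 0.70 against ded1-cs. The count in the double mutant was 0, not 2, at a level minimum of 100 and at the thresholds of -1.5 and 0.25. In dbp1Δ it was 3 of 83 at -1.5 and 3 of 85 at 0.25, not 6 of 210, with a median of 0.0166 at 0.25. For ded1-cs with hcDBP1 it was 34 of 88 at 0.25, not 88 of 214. Against ded1-cs it was 1, not 0, with deposited or centred changes, and against ded1-ts 0, not 1, at -1.5. Counts at a stricter threshold or level minimum are over fewer members, which by itself can lower them. Beyond that, the cause of these changes was not tested.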

Other observations

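Some members outside the lists act in related processes, and they were picked after their values were seen. NVJ1, NVJ2 and NVJ3, which encode proteins of the contact sites between nucleus and vacuole, had TE changes of -1.15, -1.07 and -1.05 in ded1-cs, 0.44, 0.16 and 0.68 in ded1-ts, and 0.16, 0.4 and 0.93 in the double mutant against dbp1Δ. GRX4, a glutaredoxin that takes part in sensing iron, had footprints at 6.4 in ded1-cs against 9.04 in DED1-CS and mRNA at 9.9 against 10.1, a TE change of -2.44. YFH1, the yeast frataxin, was at -1.81, the metal transporter SMF3 at -1.36, the siderophore transporter ARN2 at -1.09 and the cluster assembly factor IBA57 at -1.01. In ded1-ts they were at 0.31 for GRX4, 0.47 for YFH1, 0.03 for SMF3, 0.42 for ARN2 and 0.35 for IBA57. Other genes of iron uptake that were low in ded1-cs were not members. FET3 had TE changes of -2.98 in ded1-cs and -0.83 in ded1-ts, FET4 was at -1.65 and -0.76, and the iron-responsive activator AFT1 at -1.53 and -1.54.

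Among the 215 members there were 7 pairs of neighbouring genes in the annotation. They were SMT1 and IDS2, ASH1 and SPE1, YKR018C and IRS4, FAR10 and LIP2, EAR1 and HOT1, CUZ1 and YCK2, and CEX1 and AZF1. How many pairs 215 genes placed at random would give was not computed, so no clustering is read from them. Overlap with another annotated gene was found for 2 members, YGR017W and YIL060W.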
